A study of Mus musculus with 12 samples.

Results

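The rearranged T cell receptor (TCR) beta chains described here use one of 5 less used variable (V) segments, TRBV14, TRBV17, TRBV20, TRBV24 and TRBV30. A clonotype was taken as a member if the first V gene that the authors' alignment lists for it is one of these. This gave 9054 of 113665 clonotypes (7.97%) and 122482 of 1716882 unique molecular identifiers (UMIs, 7.13%), where each UMI tags 1 cDNA molecule. The files name 31 V segments, and 25 of them reached at least 10 UMIs in at least 3 libraries, including all 5 members.

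In the thymus, a beta chain gene is assembled from a V, a D and a J segment. Bases are lost from and added to the ends that are joined, and the loop that results, complementarity-determining region 3 (CDR3), contacts the peptide that a T cell recognizes. A join can be out of frame or contain a stop codon. Such a non-productive allele may still be transcribed in a cell whose other allele makes the receptor.

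TCR beta libraries were made from CD4+ T cells of Rag2-/- recipients, which make no T or B cells of their own, 6 weeks after intraperitoneal transfer of naive CD4+ CD25- CD44- CD62L+ T cells, a model of T cell-mediated colitis. Donors were C57BL/6 mice with floxed Prkaa1, the gene of the AMPKα1 subunit of AMP-activated protein kinase. WT donors carried Prkaa1 fl/fl alone, and KO donors also carried CD4-Cre, which deletes the gene in cells in which the Cd4 promoter has been active, so the floxed allele is common to both. The 6 recipients are WT mice 1, 3 and 4 and KO mice 1, 2 and 3, numbered as in the labels. Each gave 1 library from spleen and 1 from mesenteric lymph nodes (mLN), so that 12 libraries fall into 4 groups of 3. The labels give no ages and do not say whether the recipients of a group received cells of separate donors, so p-values measure only the spread between these recipients. The files hold TCR beta sequences only, and neither the loss of Prkaa1 nor CD4 can be checked in them.

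Library totals ranged from 2488 to 493287 UMIs. In 5 libraries (both of WT mouse 1, both of KO mouse 1 and KO mouse 3 mLN), under 10% of the clonotypes of 1 UMI had a CDR3 end that is unusual for their J segment. The other 7 libraries had more than 25% and also the larger totals. Libraries of close totals could still differ in kind. KO mouse 1 spleen held 64882 UMIs and had 5.67%, and WT mouse 3 mLN held 68536 UMIs and had 25.1%. What sets the kind of library was not tested. The 5 members together took 3.22 to 3.996% of UMIs in the libraries of WT mouse 1 and KO mouse 1, 8.36% in KO mouse 3 mLN and 6.39 to 8.55% in the other 7. As a share of clonotypes they differed less, from 6.59 to 8.79% over the 12 libraries. In bulk RNA, more cells with a segment and more TCR mRNA per cell cannot be told apart.

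All 5 segments lie on the plus strand of mouse chromosome 6 (GRCm38, RefSeq annotation), TRBV14 at chr6:41135167-41135616, TRBV17 at chr6:41163092-41163556, TRBV20 at chr6:41188273-41188977, TRBV24 at chr6:41218091-41218557 and TRBV30 at chr6:41281376-41281990. The part of each V exon that enters the CDR3 is shown as in GRCm38. It begins with the codon of the conserved cysteine, in capitals. Its first 9 bases served to check the V calls, and its length is set beside the CDR3 lengths below. CDR3 lengths and trimming themselves come from the authors' alignment.
TRBV14 (chr6:41135601-41135616): TGTgccagcagtttct
TRBV17 (chr6:41163540-41163556): TGTgctagcagtagaga
TRBV20 (chr6:41188964-41188977): TGTggtgctaggga
TRBV24 (chr6:41218541-41218557): TGTgccagcagtctgta
TRBV30 (chr6:41281977-41281990): TGTagttctagaga
TRBV20 and TRBV30 contribute 14 nucleotides at most, TRBV14 contributes 16, and TRBV17 and TRBV24 contribute 17. Among clonotypes of at least 2 UMIs, 85.9% (TRBV20) to 98.1% (TRBV24) began with the first 9 of these bases. TRBV14 and TRBV24 have those 9 bases in common, so this check cannot separate them from each other. More than 1 V gene was listed for 0.464% of the member clonotypes, with 0.0343% of the member UMIs.

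GENCODE calls TRBV24 a V pseudogene, while RefSeq lists it as a V segment. The other members are V genes in both. The reading frame of the TRBV24 exon, from its start codon, contains 1 stop codon, TAG at chr6:41218535-41218537, which lies 2 codons before the conserved cysteine and so outside the CDR3. The reference frames of the other 4 members contain 0 stop codons. The end of the TRBV24 exon is shown with this stop codon in capitals.
TRBV24 (chr6:41218505-41218557): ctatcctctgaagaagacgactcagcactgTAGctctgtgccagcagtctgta
A CDR3 call alone does not see this codon, and below "productive" means only that the CDR3 is in frame and has no stop codon.

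Non-productive clonotypes made up most of TRBV24. Of 360 TRBV24 clonotypes of at least 2 UMIs, pooled over the 12 libraries, 71.9% were non-productive, and 70.3% were out of frame. This was the highest share among the 22 V segments with at least 50 such clonotypes. It was 29.1% of 385 for TRBV17 (rank 5 of the 22), 20.3% of 453 for TRBV14, 14.9% of 87 for TRBV30 and 13.5% of 899 for TRBV20. Over all V segments that are not members it was 14.3% of 23446.

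The libraries gave the same picture for TRBV24 except 1 small one. In spleen, its non-productive share of clonotypes was 100% (3 of 3), 67.1% and 72.3% in WT mice 1, 3 and 4 and 73.3%, 69.7% and 77.4% in KO mice 1, 2 and 3. In mLN it was 33.3% (2 of 6), 75% and 72.3% in WT mice 1, 3 and 4 and 75%, 79.3% and 100% (1 of 1) in KO mice 1, 2 and 3. By UMIs, the non-productive share of TRBV24 ran from 40% in WT mouse 1 mLN to 96.1% in WT mouse 3 mLN, and to 100% of 2 UMIs in KO mouse 3 mLN.

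**Figure D1:**
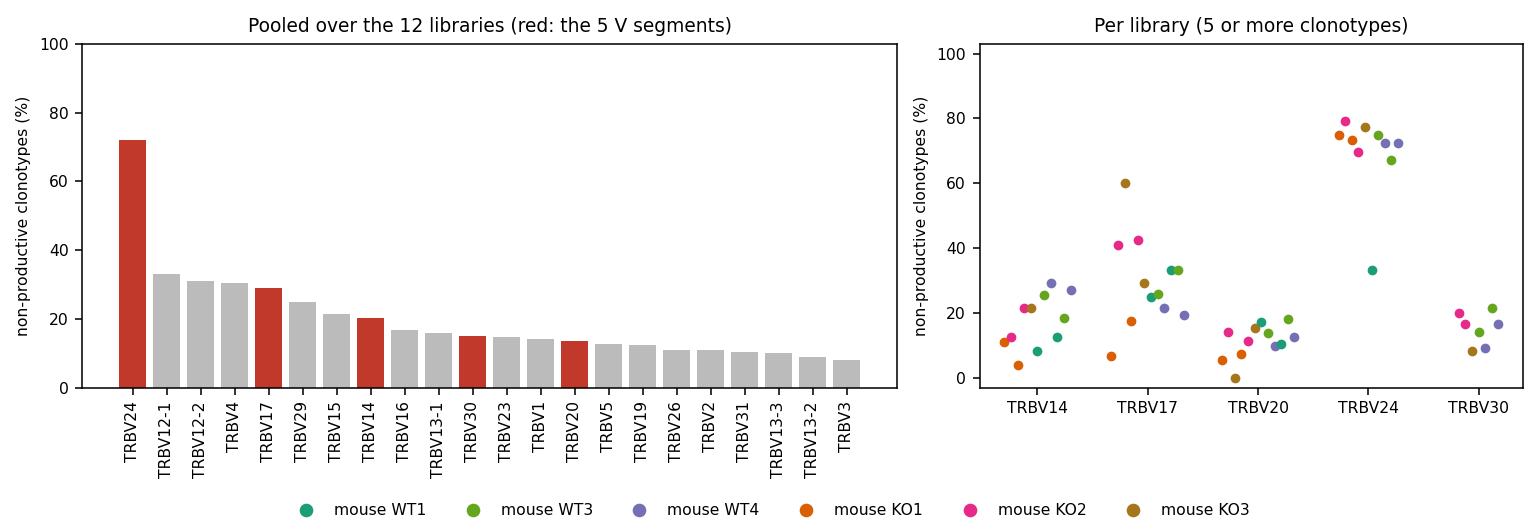
Left, percent of clonotypes of at least 2 UMIs that are non-productive for each of 22 V segments, pooled over the 12 libraries, with the 5 members in red. Right, the same percent per library (points, colored by mouse) for libraries with at least 5 clonotypes of the segment. TRBV24 stands at 71.9%, and its points lie between 67.1 and 79.3% except 33.3% in WT mouse 1 mLN.

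Each V segment was compared with all other V segments of the same library, over mice. With at least 10 clonotypes per segment and library, 17 segments could be tested and 0% were called (two-sided exact sign-flip test over 6 mice, Benjamini-Hochberg adjustment over all V segments tested, smallest possible p = 0.03125). At an unadjusted p under 0.05 there were 9. Only TRBV14 and TRBV20 of the members had 6 mice, and TRBV24, with 5, was 56.6 to 61.9 percentage points above the other segments in each. TRBV14 was 2.78 percentage points above the others (SD 7.01, n = 6, higher in 3 mice, exact sign-flip adjusted p = 0.406), and 0.503 above them without WT mouse 4 and 0.0718 above them with clonotypes of 1 UMI included. TRBV20 was at −2.20 (SD 3.36, n = 6, higher in 2 mice, exact sign-flip adjusted p = 0.248).

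With a minimum of 5 clonotypes, chosen after the data were seen, 20 segments could be tested and 65% were called, 2 members among them. The TRBV24 share was 53.1 percentage points above that of the other segments (SD 15.3, n = 6, higher in 6 of 6 mice, exact sign-flip adjusted p = 0.0481). The TRBV17 share was 15.98 percentage points above (SD 11.5, n = 6, higher in 6 of 6 mice, exact sign-flip adjusted p = 0.0481). Both calls thus stood in a test that called most segments. They also needed WT mouse 1, which entered only at this minimum. There TRBV17 had 8 clonotypes in mLN and 9 in spleen. TRBV24 had 6 in mLN, with a difference of 22.2 percentage points. In KO mouse 3 the TRBV17 difference was 11.8 at the minimum of 10 and 32.7 here, where 5 mLN clonotypes were added.

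One out-of-frame TRBV17 clonotype of 23 nucleotides, joined to TRBJ2-7, had at least 2 UMIs in all 12 libraries. It is shown because no other member clonotype reached 2 UMIs in all 6 mice. It has the first 6 bases of the TRBV17 part and continues directly with TRBJ2-7 bases, with 0 bases between them, so no letter is in capitals.
TRBV17 with TRBJ2-7: tgtgctcctatgaacagtacttc
In WT mice 1, 3 and 4 it took 0.0799%, 0.0697% and 0.0506% of spleen UMIs and 0.0250%, 0.0452% and 0.0714% of mLN UMIs. In KO mice 1, 2 and 3 it took 0.0432%, 0.0513% and 0.0901% in spleen and 0.0253%, 0.0634% and 0.121% in mLN. It had 3 UMIs in WT mouse 1 mLN and in KO mouse 3 mLN and 344 in WT mouse 3 spleen. Of 18536 pairs of V segment and CDR3 with at least 2 UMIs, 18014 were found in 1 mouse and 2 in all 6, the other being of a V segment that is no member.

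Without this clonotype the pooled non-productive share of TRBV17 was 26.8% of 373. The difference from the other segments fell to 8.84 percentage points (SD 9.01, n = 6, higher in 5 of 6 mice), and the exact sign-flip adjusted p rose to 0.144. The TRBV24 difference was 53.1 percentage points again, with an exact sign-flip adjusted p of 0.0568, because fewer segments then reached the smallest p. This choice was made after the data were seen, and removal of an out-of-frame clonotype lowers the share by construction.

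TRBV24 also differed in clonotype size between frames, as a description. Its out-of-frame clonotypes had a mean of 27.4 UMIs and a median of 5, and its productive clonotypes had a mean of 14.5 and a median of 4. For the V segments that are not members, the means were 19.9 and 72.0 and the medians 4 and 6. The other members had the same order as these, with means of 14.4 and 59.6 (TRBV14), 26.9 and 109 (TRBV17), 9.75 and 58.3 (TRBV20) and 5.09 and 63.3 (TRBV30). Means over clonotypes rest on a few large ones. For TRBV24, 1 out-of-frame clonotype of WT mouse 3 had 1489 UMIs in spleen and 441 in mLN.

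Next, the level of each segment was ranked by all of its UMIs, productive or not. As the mean percent of library UMIs over 6 mice, TRBV20 was 14th of 25 with 2.33 ± 0.957% (mean ± SD, n = 6). TRBV14 was 15th with 1.67 ± 1.30% and TRBV17 17th with 1.62 ± 0.884%. TRBV24 was 21st with 0.449 ± 0.288% and TRBV30 22nd with 0.232 ± 0.194%. Among clonotypes of at least 2 UMIs, 80.3% of TRBV24 UMIs and 1.18% of TRBV30 UMIs were out of frame. A ranking by productive UMIs alone was not made, so the place of TRBV24 above TRBV30 holds only for all UMIs.

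The order was firm only between the upper 3 and the lower 2. TRBV20 and TRBV17 were above both TRBV24 and TRBV30 in 6 of 6 mice, and TRBV14 was above TRBV30 in 6 and above TRBV24 in 5. Within these sets the order changed with the mouse. TRBV20 was above TRBV14 in 4 of 6 mice and above TRBV17 in 4, and TRBV14 was above TRBV17 in 3. With non-productive UMIs counted, TRBV24 was above TRBV30 in 4.

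The segments varied unequally over the 12 libraries. The highest level was 3.43 times the lowest for TRBV20, 6.77 times for TRBV17, 8.31 times for TRBV14, 14.8 times for TRBV24 and 45.5 times for TRBV30. The lowest TRBV30 level, 0.0168% in KO mouse 1 mLN, rested on 4 UMIs, with a Wilson 95% confidence interval of 0.00655 to 0.0433%. The lowest TRBV24 level, 0.0804% in KO mouse 3 mLN, rested on 2 UMIs (0.0220 to 0.293%). Intervals cover counting error only.

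**Figure D2:**
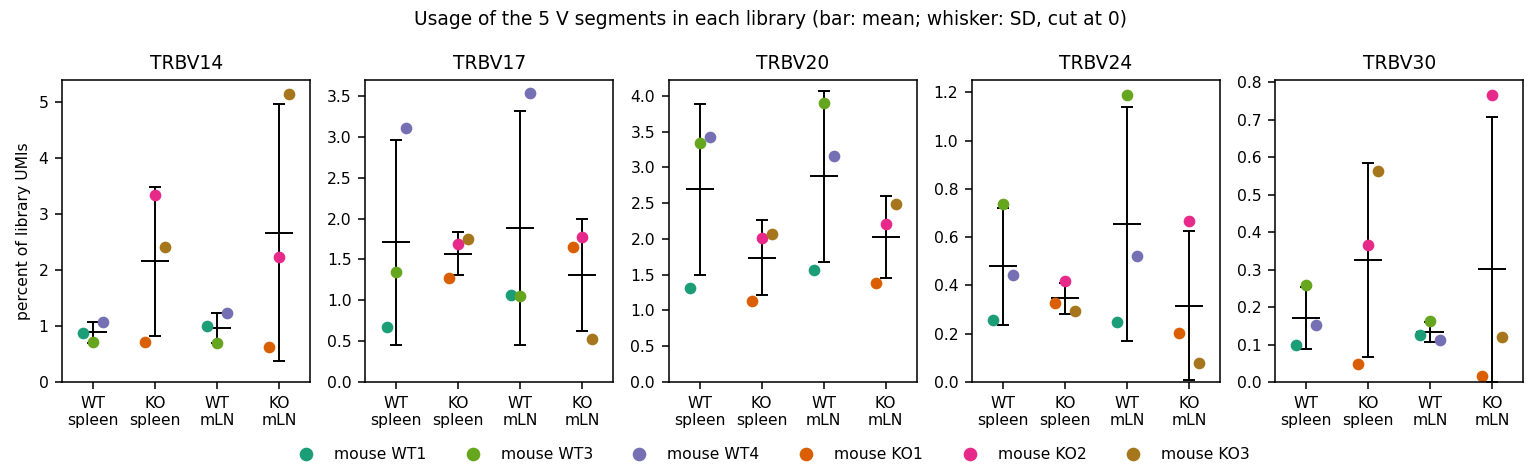
Percent of library UMIs (vertical axis) for TRBV14, TRBV17, TRBV20, TRBV24 and TRBV30 in the 4 groups. Points are single libraries colored by mouse, the horizontal bar is the mean and the whisker the SD over 3 libraries, cut at 0. WT and KO points overlap in every panel and organ.

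To ask whether the loss of AMPKα1 alters the repertoire, KO and WT were compared in each organ. None of the 5 members was called. In spleen, 8% of 25 V segments were called (edgeR quasi-likelihood test on UMIs per segment, Benjamini-Hochberg adjusted p under 0.05), 2 segments outside the 5. In mLN, 0% of 23 were called, with 1 at an unadjusted p under 0.05 by edgeR, and DESeq2 called 0. Libraries of WT and KO overlapped for every member in both organs, and over all V segments tested 4% in spleen and 4.35% in mLN (1 segment each) did not overlap.

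TRBV14 had the largest positive fold change of the members in both organs. In WT spleen it took 0.878%, 0.710% and 1.08% of UMIs in mice 1, 3 and 4, and in KO spleen 0.721%, 3.34% and 2.40% in mice 1, 2 and 3. In mLN it took 0.993%, 0.690% and 1.22% in the WT mice and 0.619%, 2.23% and 5.14% in the KO mice. KO mice 2 and 3 were above every WT mouse in both organs, and KO mouse 1 lay below WT mouse 1 in both.

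On the log2 scale the TRBV14 difference, KO minus WT, was 1.28 ± 0.689 in spleen (SE, edgeR adjusted p = 0.418). It was 1.44 ± 0.879 in mLN (SE, edgeR adjusted p = 0.705), and 0.56 without KO mouse 3, whose mLN library held 2488 UMIs. In spleen it was 0.81 without KO mouse 2. In spleen, the log2 ratio of the mean percents came to −0.28 for libraries with few unusual ends (1 WT, 1 KO) and to 1.68 for those with many (2 WT, 2 KO). In mLN both were positive, 1.54 (1 WT, 2 KO) and 1.22 (2 WT, 1 KO). The value of 1.54 rested on KO mouse 3, at 5.14%. KO mouse 1, the other KO library with few, was at 0.619%, below WT mouse 1 at 0.993%.

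The largest TRBV14 clonotype took large shares in libraries with high TRBV14 levels and in some with low levels and few TRBV14 UMIs. The TRBV14 clonotype with the highest mean percent over the 12 libraries took 60.9% of TRBV14 UMIs in KO mouse 3 mLN and 39.7% in its spleen. In KO mouse 2, another TRBV14 clonotype took 36.9% in mLN and 48.4% in spleen. Where TRBV14 was low, the largest clonotype took 44.0% of 468 TRBV14 UMIs in KO mouse 1 spleen. In WT mouse 1 it took 41.4% of 99 in spleen and 31.1% of 119 in mLN. In the other 5 libraries the largest clonotype took 12.9 to 23.2%. When clonotypes of at least 2 UMIs were counted in place of UMIs, the log2 difference in spleen was 0.01 and in mLN 0.32.

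TRBV30 was the other member whose mean was higher in KO in both organs. It took 0.0976%, 0.259% and 0.153% in WT spleen and 0.0478%, 0.366% and 0.562% in KO spleen. Its mLN levels were 0.125%, 0.162% and 0.113% (WT) and 0.0168%, 0.767% and 0.121% (KO). A single library, KO mouse 2 mLN, stood above all others in mLN.

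The TRBV30 log2 difference was 0.91 ± 0.930 in spleen (SE, edgeR adjusted p = 0.685), and 0.26 without KO mouse 3. It was 1.24 ± 1.23 in mLN (SE, edgeR adjusted p = 0.705), and without KO mouse 2 it was −1.47. Split by kind, the log2 ratio with few unusual ends was −1.03 in spleen and −0.86 in mLN, and with many 1.17 and 2.48. Its direction therefore did not hold over the libraries.

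TRBV20, TRBV24 and TRBV17 had lower means in KO in both organs. TRBV20 took 1.31%, 3.34% and 3.42% in spleen of WT mice and 1.14%, 2.01% and 2.07% in KO spleen. Its mLN levels were 1.57%, 3.90% and 3.16% (WT) and 1.38%, 2.21% and 2.49% (KO). The log2 difference was −0.63 ± 0.636 in spleen (SE, edgeR adjusted p = 0.685) and −0.51 ± 0.718 in mLN (SE, edgeR adjusted p = 0.705), and the differences were smaller than the spread in WT. Without WT mouse 3 the mLN value was −0.23, and without KO mouse 1 the spleen value was −0.40.

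TRBV24 took 0.257%, 0.737% and 0.442% in WT spleen and 0.327%, 0.419% and 0.296% in KO spleen. Its mLN levels were 0.250%, 1.19% and 0.524% (WT) and 0.202%, 0.667% and 0.0804% (KO). WT mouse 3 was the highest in both organs. The log2 difference was −0.48 ± 0.856 in spleen (SE, edgeR adjusted p = 0.764) and −0.97 ± 1.11 in mLN (SE, edgeR adjusted p = 0.705). Without WT mouse 3 these values were −0.022 and −0.23, and without KO mouse 2 the mLN value was −2.10. When only productive clonotypes were counted, the spleen value was 0.032.

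TRBV17 took 0.674%, 1.34% and 3.10% in WT spleen and 1.27%, 1.68% and 1.75% in KO spleen. Its mLN levels were 1.06%, 1.05% and 3.54% (WT) and 1.65%, 1.77% and 0.523% (KO). WT mouse 4 stood above all others in both organs. The log2 difference was −0.13 ± 0.667 in spleen (SE, edgeR adjusted p = 0.849) and −0.50 ± 0.871 in mLN (SE, edgeR adjusted p = 0.728), and without WT mouse 4 it was 0.63 and 0.33.

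**Figure D3:**
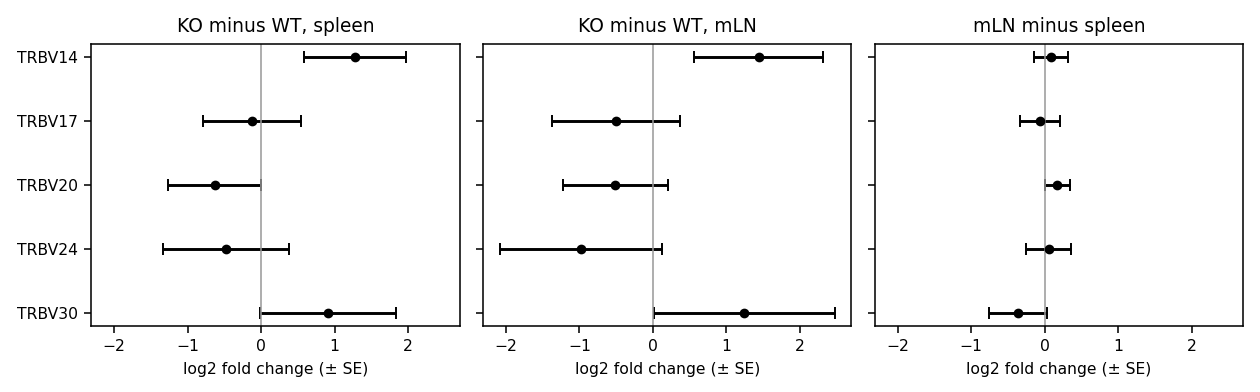
Log2 fold change in UMIs per V segment (horizontal axis, point, with the SE as whisker) for each of the 5 segments, from edgeR, for KO minus WT in spleen (left), KO minus WT in mLN (middle) and mLN minus spleen with the mouse as a block (right). The organ differences lie between −0.36 and 0.17 and have smaller SEs than the genotype differences.

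To ask whether the organs differ, mLN and spleen of the same mouse were compared. By edgeR, blocked on the mouse, 0% of 25 V segments were called. An unadjusted p under 0.05 was reached by 3, and DESeq2 called 1, which was no member. V usage of the 2 organs of a mouse deviated from the means of their groups in like ways, with an average correlation of 0.722 over 6 mice.

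The log2 difference, mLN minus spleen, was 0.09 ± 0.232 for TRBV14, −0.06 ± 0.272 for TRBV17, 0.17 ± 0.168 for TRBV20, 0.06 ± 0.309 for TRBV24 and −0.36 ± 0.395 for TRBV30 (SE). The edgeR adjusted p-values lay between 0.813 and 0.920. TRBV20 was higher in mLN in 5 of 6 mice, with a mean log2 ratio of 0.18 (SD 0.152). TRBV14 was higher in mLN in 3 mice, TRBV17 in 4, TRBV24 in 3 and TRBV30 in 2.

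Whether the organ difference itself differed between KO and WT was tested by edgeR, as a test added after the data were seen, and no member was called. The log2 values, KO minus WT, ran from −0.63 ± 0.693 for TRBV24 to 0.11 ± 0.369 for TRBV20 (SE, edgeR adjusted p from 0.903 to 0.995). Over all 25 segments this test made 0 calls, with 2 at an unadjusted p under 0.05. DESeq2 was not run on it.

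CDR3 length was then compared. Productive TRBV20 clonotypes of at least 2 UMIs had a mean CDR3 of 39.3 nucleotides over 778 clonotypes, against 41.4 for V segments that are not members. TRBV30 had 39.7 (74 clonotypes), TRBV14 41.0, TRBV17 41.6 and TRBV24 43.3 (101 clonotypes). The 2 segments with 14 germline nucleotides had the shortest means of the 5.

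Over mice, TRBV20 was 2.01 nucleotides shorter than the other V segments of the same library (difference −2.01, SD 0.872, n = 6, in all 6 mice below 0, exact sign-flip p = 0.03125, the smallest possible, adjusted p = 0.0455). By mouse the difference was −0.43, −1.996 and −2.42 in WT mice 1, 3 and 4 and −3.03, −2.29 and −1.87 in KO mice 1, 2 and 3. In the same test 68.8% of 16 V segments were called, 7 of them shorter, TRBV20 included, and 4 longer. TRBV20 was shorter in 10 of the 11 libraries with at least 10 clonotypes, and WT mouse 1 spleen, with 17 clonotypes, was at 41.5 against 41.4.

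**Figure D4:**
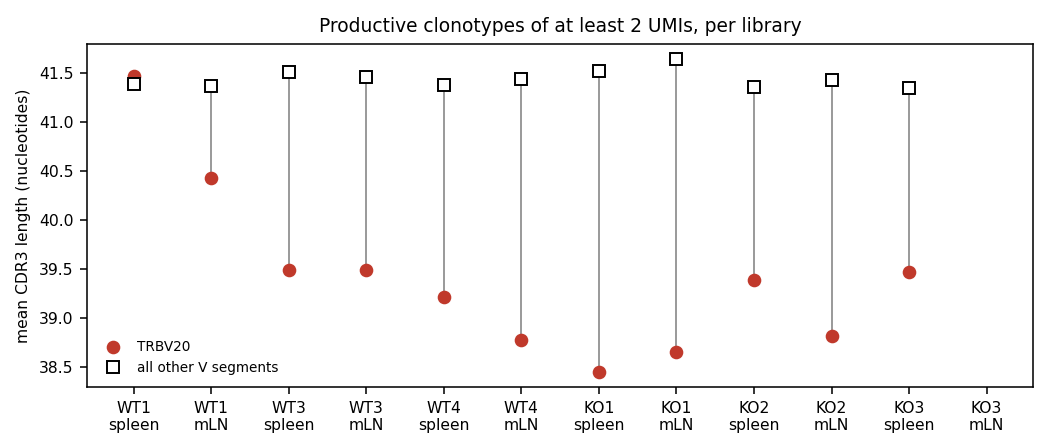
Mean CDR3 length in nucleotides (vertical axis, not starting at 0) of productive clonotypes of at least 2 UMIs for TRBV20 (red) and all other V segments (open squares) in each library with at least 10 TRBV20 clonotypes. TRBV20 is below the other segments in every library shown except WT mouse 1 spleen.

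This call depended on the setting. With each clonotype weighted by its UMIs the TRBV20 difference was −0.90 (exact sign-flip adjusted p = 0.286). With clonotypes of 1 UMI included it was −1.98 (exact sign-flip adjusted p = 0.0804). TRBV14 differed by −0.21 nucleotides (SD 0.478, n = 6, exact sign-flip adjusted p = 0.321). TRBV24 and TRBV30 had 3 mice each with enough clonotypes, too few for the test. TRBV24 differed by 0.11 (KO mouse 2), 2.99 (WT mouse 3) and 2.29 (WT mouse 4), and TRBV30 by −2.28 (KO mouse 3), −0.80 (WT mouse 3) and −2.03 (WT mouse 4).

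The parts of the joins are given as descriptions, for productive clonotypes of at least 2 UMIs pooled over the 12 libraries. TRBV20 clonotypes kept a mean of 12.1 germline V bases and TRBV30 12.3, against 13.8 in the segments that are not members, 12.8 for TRBV14, 14.5 for TRBV17 and 14.5 for TRBV24. Fully untrimmed V ends were found in 40.5% of TRBV30 and 37.0% of TRBV20 clonotypes, against 26.7% in the segments that are not members. The share was 20.5% in TRBV17, 16.8% in TRBV24 and 4.43% in TRBV14. Between the V and J bases lay a mean of 7.996 bases in TRBV20, 8.16 in TRBV30 and 8.94 in the segments that are not members. For TRBV14, TRBV17 and TRBV24 this was 9.15, 8.51 and 9.05.

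J segments were compared as well. TRBV14 used a TRBJ1 segment in 23.3% of 361 productive clonotypes, against 34.6% in the V segments that are not members. Over mice the difference was −13.9 percentage points (SD 10.4, n = 6, below 0 in 5 mice of the 6, exact sign-flip p = 0.0625, adjusted p = 0.333). WT mouse 4 went the other way in mLN, with 41.4%. TRBV20 differed by −4.30 percentage points (SD 11.3, n = 6, exact sign-flip adjusted p = 0.591). In this test 0% of 16 segments were called, with 2 at an unadjusted exact sign-flip p under 0.05.

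The most used J segment was TRBJ2-5 in TRBV14, with 22.2% of clonotypes against 12.9% in V segments that are not members. It was TRBJ2-7 in the other 4, with 23.4% in TRBV17, 17.1% in TRBV20, 13.9% in TRBV24 and 22.97% in TRBV30, against 17.9%. A clonotype found in both organs counts in each library. TRBV24 used TRBJ1 segments in 50.5% of its 101 productive clonotypes, and in the 4 libraries with at least 10 of them the share ran from 36% to 70%. With 3 mice in those libraries there was no test.

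The size of productive TRBV20 clonotypes, as the log2 ratio of mean UMIs to the other V segments of the same library, was −0.76 (SD 0.648, n = 6, below 0 in each of the 6 mice, exact sign-flip p = 0.03125, adjusted p = 0.167). By mouse the ratio was −1.29, −0.07 and −0.06 in WT mice 1, 3 and 4 and −1.65, −0.59 and −0.91 in KO mice 1, 2 and 3. It ran from −1.69 to −1.19 in the libraries of WT mouse 1 and KO mouse 1, which have few unusual ends. In the libraries with many it ran from −0.91 to 0.072. The link to the kind of library was not tested. Single libraries went the other way in WT mouse 3 mLN (0.072) and WT mouse 4 spleen (0.036), and the pooled medians were equal, at 6 UMIs for TRBV20 and for the V segments that are not members. TRBV14 was at −0.48 (SD 0.997, n = 6, exact sign-flip adjusted p = 0.455). Productive TRBV24 clonotypes, in 3 mice and so with no test, were at −3.15 (KO mouse 2), −3.63 (WT mouse 3) and −2.03 (WT mouse 4). In this test 0% of 16 segments were called, with 3 at an unadjusted exact sign-flip p under 0.05.

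Each segment's level was carried in part by large clonotypes. The largest clonotype of a library took 12.3 to 61.3% of TRBV20 UMIs, 12.9 to 60.9% of TRBV14, 12.9 to 58.9% of TRBV17, 17.5 to 100% of TRBV24 and 35.7 to 100% of TRBV30. The values of 100% belong to KO mouse 3 mLN, with 2 TRBV24 and 3 TRBV30 UMIs. The clonotype with the highest mean percent over the 12 libraries is shown for each segment. Capitals mark the bases between the V and the J part.
TRBV14 with TRBJ2-4: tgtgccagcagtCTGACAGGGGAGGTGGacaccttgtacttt
TRBV17 with TRBJ2-4: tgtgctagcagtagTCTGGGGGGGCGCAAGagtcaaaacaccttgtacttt
TRBV20 with TRBJ2-1: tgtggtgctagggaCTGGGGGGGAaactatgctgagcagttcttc
TRBV24 with TRBJ2-5: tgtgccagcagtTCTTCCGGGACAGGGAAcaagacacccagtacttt
TRBV30 with TRBJ1-3: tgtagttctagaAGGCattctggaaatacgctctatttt

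Each was large in the 2 organs of 1 mouse. The TRBV14 clonotype took 3.14% of mLN and 0.955% of spleen UMIs in KO mouse 3, and the TRBV20 clonotype 1.53% and 0.541% in the same mouse. The TRBV17 clonotype took 1.68% of mLN and 1.79% of spleen UMIs in WT mouse 4. The TRBV30 clonotype took 0.638% of mLN and 0.260% of spleen UMIs in KO mouse 2. The TRBV24 clonotype, which is out of frame with 47 nucleotides, took 0.643% of mLN and 0.302% of spleen UMIs in WT mouse 3, where it ranked 18th and 62nd. In other mice none of the 5 exceeded 14 UMIs.

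**Figure D5:**
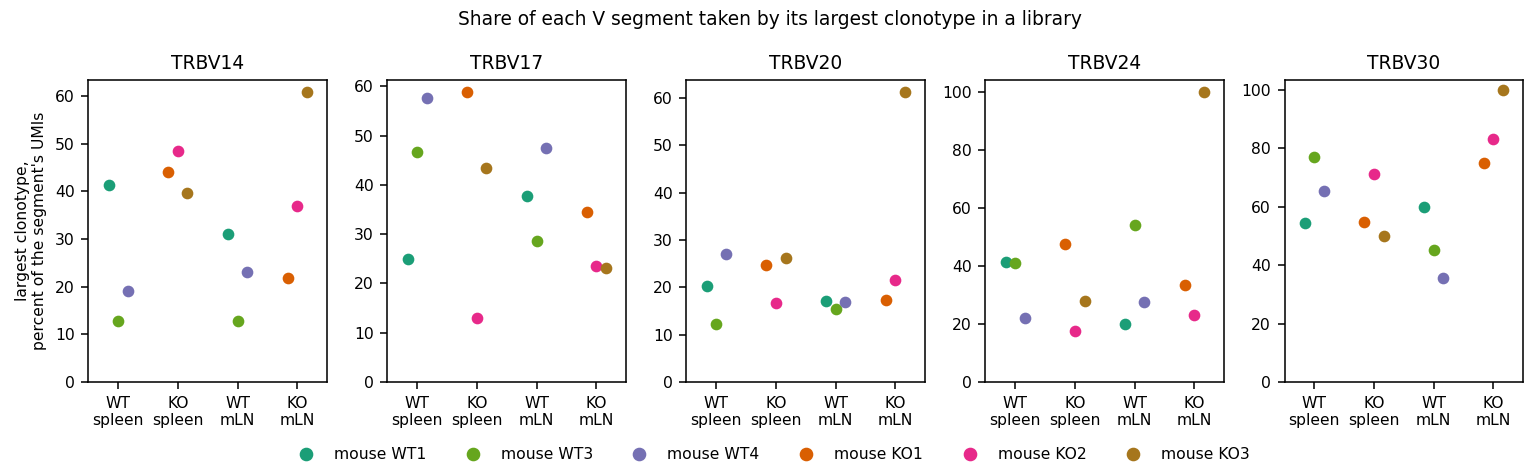
Percent of a segment's UMIs (vertical axis) taken by its largest clonotype in each library, for the 5 segments and 4 groups, with points colored by mouse. TRBV30 lies highest, from 35.7 to 100%, and the 100% values in KO mouse 3 mLN rest on 2 and 3 UMIs.

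Organs of a mouse had many member clonotypes of at least 2 UMIs in common. For TRBV20, 56.5 to 100% of the mLN clonotypes of a mouse were also in its spleen, and for TRBV24 16.7 to 100%, against 59.5 to 94.3% for V segments that are not members. As a share of the spleen clonotypes these were 7.14 to 68.4%, 3.23 to 54.5% and 6.71 to 72.5%, with the lowest in KO mouse 3, whose mLN library was the smallest. Between mice, 6 of 329 TRBV14 sequences, 5 of 267 TRBV17, 13 of 658 TRBV20, 3 of 274 TRBV24 and 3 of 65 TRBV30 sequences were found in more than 1. Together these are 30 of 1593 (1.88%), against 492 of 16943 (2.90%) for V segments that are not members. These counts include sequences that were large in 1 mouse and rare in another. The TRBV14 clonotype shown above had 2109 UMIs in KO mouse 3 spleen and 14 in KO mouse 2 mLN. The TRBV17 clonotype shown with it had 7808 in WT mouse 4 spleen and 6 in WT mouse 3 mLN. The TRBV17 clonotype of all 6 mice differed, at 0.0250 to 0.121% of each library. Whether shared sequences arose separately in each mouse was not tested.

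The V segment with the most similar pattern over the 12 libraries was taken by the root mean square difference of centered log2(percent + 0.1), over 20 segments outside the 5. It was TRBV2 for TRBV14 (0.408, own SD 0.945), TRBV3 for TRBV17 (0.587, own SD 0.735) and TRBV22 for TRBV20 (0.515, own SD 0.569). It was TRBV19 for TRBV24 (0.534, own SD 0.754) and TRBV31 for TRBV30 (0.710, own SD 0.851). For TRBV17, TRBV20 and TRBV30 this likeness was weak, since the difference was close to the segment's own SD. TRBV22 itself averaged 0.00875% of UMIs, so it is nearly flat on this scale.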

How the data were processed

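The authors made 5′ RACE TCR beta libraries with UMIs from RNA, sequenced them on a MiSeq, collapsed reads by UMI with MIGEC and called clonotypes with MiXCR, run with default parameters; tool versions and the V and J reference are not given in the sources used here. Clone counts, as deposited, are whole numbers and were read as UMIs; no header names their unit. Clone fraction, as deposited, equals count over library total and served only to check totals. The authors downsampled for their own analysis, and the deposited tables are not downsampled. Library totals were 2488 to 493287 UMIs, so 3 UMIs, the limit that a count of 0 allows, correspond to 0.000608 to 0.121% of a library. Intervals and limits cover counting error only.

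UMIs were summed by first V gene. Segments that reached 10 UMIs in 3 or more of the libraries compared were tested with edgeR 4.0.16 (R 4.3.3, quasi-likelihood, library totals), with the mouse as a block between organs. The SE of an edgeR log2 difference is not an output of that test. It was derived as the size of the difference over the square root of the test's F statistic. The spleen and mLN library of a genotype and number were taken as 1 mouse. Within libraries, each segment was compared with all others on clonotypes of at least 2 UMIs (at least 10 per segment and library) by exact sign-flip tests in Python 3.11.15, with p-values adjusted over all segments tested. The code was tested on simulated data. DESeq2 1.42.0, TMM, other filters, other clonotype sets, the replicate block and leaving out each replicate were alternatives. The minimum of 5 clonotypes, the test of genotype by organ and the removal of the clonotype found in all mice were added after the data were seen.

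Text names the 5 members, for each its nearest segment, its most abundant clonotype by mean percent and its most used J segment; the clonotype in all mice was named after its values were seen. Other called segments were counted only. Members and lists were chosen with earlier results of these data known. Sequences come from the deposited tables and, for the germline, from GRCm38 with RefSeq and GENCODE annotation; the authors' V reference may differ from it.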

Additional observations from a re-analysis of the deposited data

Results flagged for a closer look

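Of 19 sets of 4 to 6 mice examined for single distant values by Dixon's ratio, 2 were singled out, and chance singles out about 1 in 20. The log2 ratio of mLN to spleen percent of TRBV20 was −0.12 in WT mouse 4, against 0.14 to 0.28 in the other 5 mice. The UMIs per productive TRBV17 clonotype, as a log2 ratio to the other V segments, were 1.47 in WT mouse 4, against −0.13 to 0.31 in the other mice with at least 10 such clonotypes per library. In that mouse the largest TRBV17 clonotype took 57.6% of the segment's UMIs in spleen and 47.5% in mLN.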

How the results depend on the processing

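In no alternative was a member called between genotypes or organs. The count of V segments called in spleen, 2, was 1 with DESeq2, after downsampling, with every V segment and without clonotypes of 1 UMI, 0 with clonotypes counted, and 0 to 1 whichever replicate was left out. Numbers of WT and KO mice mark no shared animal, and their deviations correlated at 0.156 on average. With this replicate block over replicates 1 and 3, 0 segments were called in spleen and 2 in mLN (none a member) against 0, and the TRBV17 spleen value was 0.64. The organ comparison without the mouse (no replicate block) called 0, and with DESeq2 1. Non-productive share called 13 at a minimum of 5 clonotypes against 0, and CDR3 length called 0 against 11 with 1-UMI clonotypes, at that minimum, weighted by UMIs and without clonotypes 100 times more frequent in another mouse (TRBV20 adjusted p = 0.05 there by exact sign-flip test). These calls all rest on the smallest possible p, so the number of segments reaching it sets the adjusted value. At a minimum of 20 clonotypes no member could be tested for CDR3 length, TRBJ1 share or UMIs per clonotype.

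Of 354 values of single segments under alternatives, 33 changed direction, none of a called result. Counting clonotypes gave 0.30 (TRBV17, spleen), 0.51 (TRBV17, mLN) and, for mLN minus spleen, −0.18 (TRBV14), 0.027 (TRBV17), −0.0049 (TRBV20), −0.093 (TRBV24) and 0.30 (TRBV30). Productive clonotypes gave 0.032 (TRBV24, spleen). For mLN minus spleen, DESeq2 gave −0.018 (TRBV14) and −0.11 (TRBV24), TMM −0.029 (TRBV24), and removal of 1-UMI clonotypes −0.0063 (TRBV24). Within libraries with few unusual ends, KO minus WT was −0.28 (TRBV14), 0.91 (TRBV17), 0.34 (TRBV24) and −1.03 (TRBV30) in spleen and 0.033 (TRBV17), 0.31 (TRBV20) and −0.86 (TRBV30) in mLN, and mLN minus spleen −0.022 (TRBV14), 0.51 (TRBV17) and −0.37 (TRBV24). Within those with many it was −0.15 (TRBV14). Leaving out 1 replicate gave −0.50 to 0.63 (TRBV17, spleen), −0.79 to 0.33 (TRBV17, mLN), −1.47 to 1.82 (TRBV30, mLN) and, between organs, −0.10 to 0.23 (TRBV14), −0.20 to 0.17 (TRBV17) and −0.13 to 0.22 (TRBV24). Without 1 mouse, other values that were not called ran from −7.55 to −1.37 (TRBV20, TRBJ1 share), −3.16 to −1.42 (TRBV20, non-productive share) and −0.76 to −0.24 (TRBV14, UMIs per clonotype). The causes were not tested. KO mouse 3 mLN, with 2488 UMIs, limits the KO mLN means and the comparisons that use them.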
